A study of Homo sapiens with 2 samples.

Results

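The genes described here make microRNAs and move them through the cell. They are the nuclear cropping enzyme genes DROSHA and DGCR8, the export genes XPO5 and RAN, the dicing genes DICER1, TARBP2 and PRKRA, the Argonaute importer IPO8 and the uridyltransferase genes TUT4 and TUT7. The 10 genes were listed by function and matched to the array by gene symbol or Entrez identifier. Of the 10, 9 had at least 1 probe set annotated to that gene alone. Those 9 had 25 probe sets, out of 41091 probe sets with a single symbol that stood for 19775 genes. A probe set was called detected when the mean of its log2 values on both arrays was above 0.92, close to the array medians. By that rule 20 of the 25 probe sets and all 9 genes were detected, among 13144 detected genes on the array.

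The arrays carried RNA recovered by immunoprecipitation from 293T cells, a human embryonic kidney line that carries the SV40 large T antigen. Cells of the miR-941 group were transfected with synthetic miR-941 at 30 nmol/l and their RNA was recovered with anti-Ago2. Ago2 is the Argonaute protein through which microRNAs act on mRNAs. Cells of the control group were transfected with a scrambled oligonucleotide at 30 nmol/l. For the control, the sample title says Ago2 precipitate but the antibody field says nonimmune IgG beads. If the field is right, effects of the oligonucleotide and of the antibody cannot be told apart. There was 1 array per group (Affymetrix U133 Plus series) and no input RNA was analysed here, so no test was possible, no difference has a replicate check, and recovery cannot be told apart from the mRNA level in the cells. All values below are deposited expression values taken as log2, and every difference is the miR-941 array minus the control array.

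In the canonical pathway DROSHA, held by its RNA-binding partner DGCR8, cuts a hairpin out of the primary transcript in the nucleus. Exportin-5, the product of XPO5, carries the hairpin to the cytoplasm together with the GTP-bound form of the small GTPase RAN. There DICER1, assisted by TARBP2 (TRBP) or PRKRA (PACT), removes the loop, and 1 strand of the duplex is loaded into an Argonaute protein. TUT4 and TUT7 add uridines to the end of precursors, and in the case of let-7 precursors bound by LIN28 the uridine tail marks them for decay. These proteins act on microRNA precursors, while the arrays report the members' own mRNAs.

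The sequences below are shown because miR-941 is the agent that was added and its hairpin is the kind of molecule the members handle. They are taken from RefSeq (GRCh38.p14). Capitals mark the seed, bases 2 to 8, in the mature sequence, then the mature stretch in its hairpin.
miR-941: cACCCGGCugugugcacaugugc
MIR941-1 hairpin: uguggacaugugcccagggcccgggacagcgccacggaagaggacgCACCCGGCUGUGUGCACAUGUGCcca
The hairpin lies on the plus strand at chr20:63919449-63919520, and its mature stretch begins at base 47 of 72. The same mature sequence is listed at 5 loci. Of 2370 mature microRNA names in the table, 1 has this seed, which is miR-941 itself. The hairpin of let-7a-1, of the family on which tailing by TUT4 and TUT7 is best known, is shown for comparison with the 4-base motif GGAG in capitals, which LIN28 proteins recognise in let-7 precursors.
MIRLET7A1 hairpin: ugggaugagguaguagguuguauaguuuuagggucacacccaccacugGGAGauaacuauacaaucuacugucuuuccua
This hairpin lies on the plus strand at chr9:94175957-94176036. GGAG, searched on the RNA strand alone, occurs 1 time in it and 0 times in the MIR941-1 hairpin, and is held by 43.6% of the 1519 distinct hairpins in the table. A match is a description of the letters and not a site of binding.

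The 9 measured processing and export genes differed little between the arrays, and their lowest differences were on 2 of the DICER1 probe sets. DGCR8, whose 4 probe sets carry another gene symbol too, is left out of these counts. Its probe sets, given further below, differed by -0.63 to 0.06. With each gene represented by its brightest detected probe set, 5 of the 9 read lower on the miR-941 array and 4 higher, where 42.4% of all detected genes were lower and 46.3% higher. Without probe sets of the suffixes _x_at and _s_at, which match several transcripts, 7 members had a value, 5 lower and 2 higher. The median difference was -0.04 for the members and 0 for all detected genes. The members ran from -0.29 (TUT4) to 0.23 (XPO5), and 0 of 9 differed by 2-fold or more, against 0.51% of all detected genes. At 1.5-fold the count was also 0 of 9, against 2.87% of detected genes lower and 2.92% higher. Over all probe sets of the members, 11 of the 20 detected ones were lower and 9 higher, where 43.4% and 44.2% of all detected probe sets were. None of the 20 was past 2-fold, against 0.841% of all. The 5 that were not detected held 3 higher and 2 equal values. The detected probe sets nearest the detection level had a mean of 1.13, and the highest of those not detected had 0.62.

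**Figure D1:**
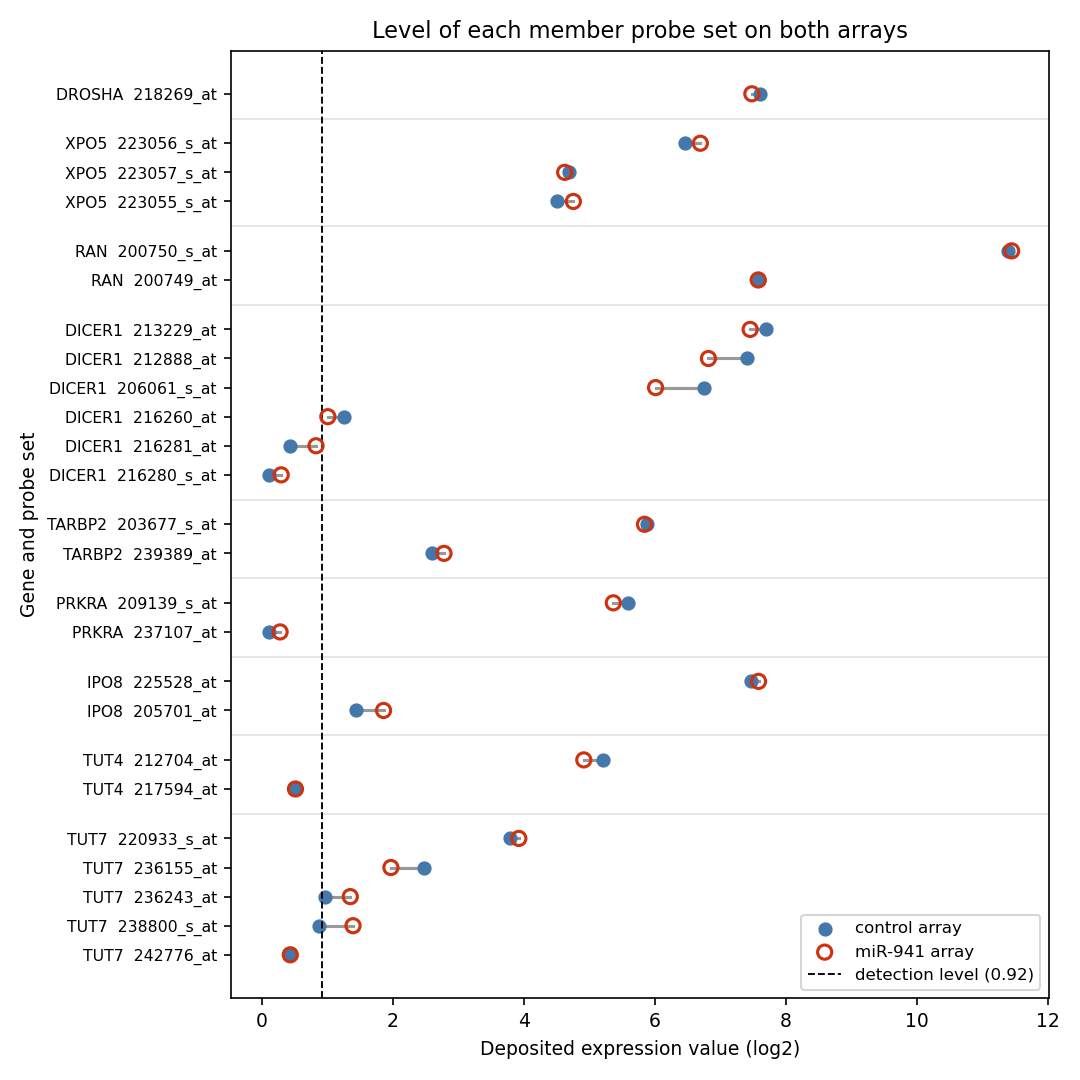
Deposited expression values (log2, horizontal axis) of the 25 probe sets of the 9 measured genes (vertical axis) on the control array (filled circles) and the miR-941 array (open circles), with 1 array per group and a dashed line at the detection level of 0.92. For DICER1 the miR-941 value lies below the control value on the 4 detected probe sets, the lowest difference being -0.74, and for both RAN probe sets the circles nearly coincide.

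DICER1, the nuclease that cuts microRNA precursors to their mature length, read lower on the miR-941 array on each of its 4 detected probe sets. Probe set 206061_s_at read 6.75 (control) and 6.01 (miR-941), differing by -0.74 or 1.66-fold. Probe set 212888_at read 7.41 and 6.82, a difference of -0.60 or 1.51-fold. Among detected probe sets annotated to 1 member alone, only these were past 1.5-fold. Of all detected probe sets, 4.04% were past 1.5-fold on the lower side and 3.61% on the higher. The DGCR8 probe sets, which carry another gene symbol too, are not counted here. They differed by -0.63 to 0.06, the lowest also past 1.5-fold. Probe set 213229_at, the brightest and therefore the one that stands for the gene, read 7.70 and 7.45, a difference of -0.25. The fourth, 216260_at, read 1.25 and 1.00, close to the detection level, and also differed by -0.24. The mean over the 4 was -0.45 ± 0.25 (SD over probe sets, which share each hybridisation and are not replicates).

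The size of the DICER1 difference thus depended on the probe set. Between a level of 6 and 8, where the 3 brighter DICER1 probe sets lie, differences of 3481 detected probe sets had an SD of 0.22. Of these, 0.517% were as low as 206061_s_at or lower, 1.12% as low as 212888_at and 13.6% as low as 213229_at. Among 647 genes with exactly 4 detected probe sets, 7.73% had all 4 lower. The remaining DICER1 probe sets, 216281_at (0.42 and 0.82) and 216280_s_at (0.10 and 0.29), were higher on the miR-941 array but below the detection level on both. An antisense gene, DICER1-AS1, had 1 detected probe set, which read 2.96 on both arrays. Equal values of this kind were found on 2902 of the 23302 detected probe sets. The array's own control for actin mRNA differed by -0.66 at its 5′ end, -0.37 in the middle and -0.04 at its 3′ end, and that for GAPDH by -0.19, -0.07 and 0.05. The control for 18S ribosomal RNA did not follow that order, with -0.44, -0.08 and -0.45. Their part in the DICER1 result was not tested, and the positions of the DICER1 probe sets along the mRNA were not used here.

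**Figure D2:**
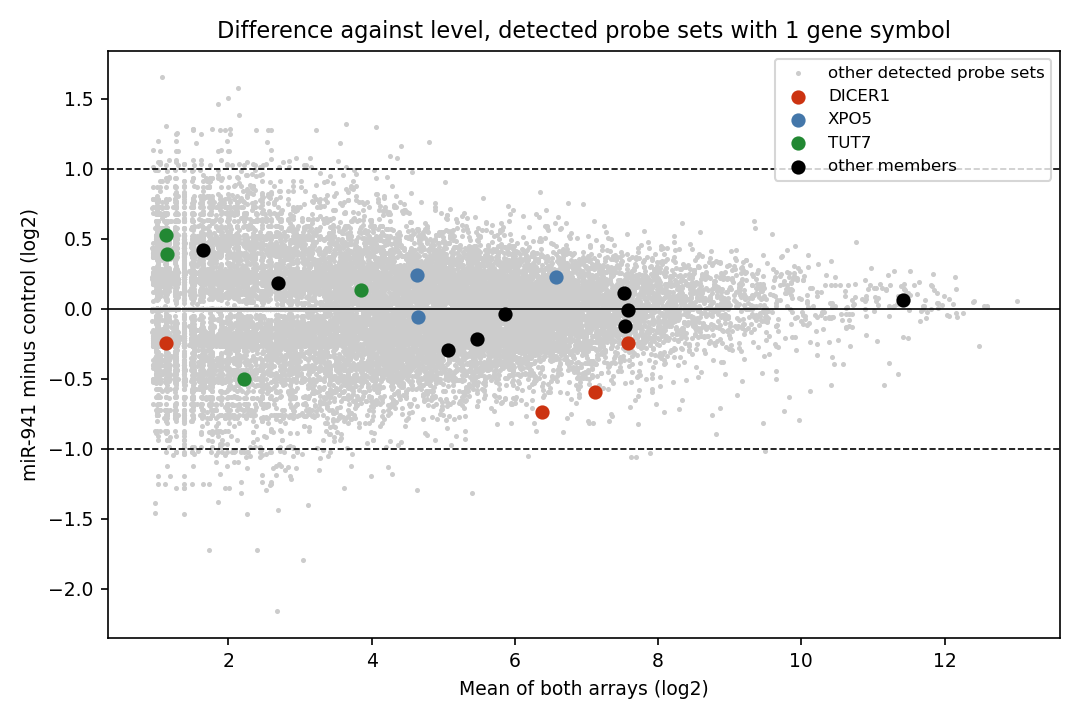
Difference between the arrays (miR-941 minus control, log2, vertical axis) against the mean of both arrays (log2, horizontal axis) for the 23302 detected probe sets with 1 gene symbol (grey) and the 20 detected probe sets of the members (coloured and black), with dashed lines at a 2-fold difference. No member point reaches a dashed line. The lowest member points are DICER1 at -0.74 and -0.60, and TUT7 points lie on both sides of 0 at dim levels. DGCR8 has no probe set with 1 gene symbol and is not shown.

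The DICER1 partners TARBP2 and PRKRA, which encode double-stranded RNA binding proteins, differed less than DICER1 did on its lowest probe sets. By brightest probe set, PRKRA (-0.22) was close to DICER1 (-0.25). TARBP2 read 5.88 (control) and 5.84 (miR-941) on 203677_s_at, differing by -0.04. Its dimmer probe set, 239389_at, read 2.60 and 2.78, a difference of 0.18 in the other direction. PRKRA read 5.58 and 5.36 on its 1 detected probe set, 209139_s_at, a difference of -0.22. Between a level of 4 and 6, 23.6% of detected probe sets were that low or lower. The other PRKRA probe set was below the detection level (0.10 and 0.28). All 3 dicing genes were thus on the lower side by their brightest probe set, where 42.4% of all detected genes were. For TARBP2 the choice of probe set decided the direction.

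Cropping was represented by DROSHA alone. DROSHA, the nuclear ribonuclease of the Microprocessor complex, read 7.60 (control) and 7.48 (miR-941), differing by -0.12, with 218269_at as its sole probe set. Of detected probe sets between a level of 6 and 8, 28.4% were that low or lower. DGCR8 was given no value, because its 4 probe sets are annotated to both MIR1306, a microRNA gene, and DGCR8. Read as probe sets of that shared annotation, they differed by -0.63 (91617_at, 4.64 and 4.01), -0.22 (64474_g_at, 5.16 and 4.95), 0.06 (218650_at, 4.30 and 4.37) and 0 (219811_at, 0.99 on both). They do not point in a single direction.

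The export genes were higher or level. XPO5, the gene of the export receptor, read 6.47 (control) and 6.69 (miR-941) on its brightest probe set (223056_s_at), differing by 0.23. Probe set 223055_s_at read 4.51 and 4.75, a difference of 0.24, and 223057_s_at read 4.68 and 4.62, a difference of -0.06. The mean over the 3 was 0.14 ± 0.17 (SD over probe sets). This mean, unlike the 0.23 of the brightest probe set, was thus smaller than that SD. All 3 carry the suffix _s_at. Between a level of 6 and 8, 12.6% of detected probe sets were as high as 223056_s_at or higher.

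RAN, the GTPase that directs cargo loading and release by nuclear transport receptors, read 11.39 (control) and 11.45 (miR-941) on 200750_s_at, differing by 0.06. Its second probe set, 200749_at, read 7.59 and 7.58, a difference of -0.0096. RAN was thus nearly level on both, although RefSeq lists 9 RAN pseudogenes, whose RNA a shared probe set may also bind. IPO8, an importin that carries Argonaute proteins and also acts in their binding to mRNAs, was higher on both probe sets. It read 7.47 and 7.58 on 225528_at, a difference of 0.11, and 1.44 and 1.86 on the dim 205701_at, a difference of 0.42. Of 3525 genes with exactly 2 detected probe sets, 22.3% had both higher.

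The uridyltransferase genes TUT4 and TUT7, close relatives that tail let-7 precursors, did not share a direction. TUT4 read 5.21 (control) and 4.91 (miR-941) on 212704_at, differing by -0.29, and between a level of 4 and 6 some 15.5% of detected probe sets were that low or lower. Its other probe set was below the detection level and read 0.51 on both arrays. TUT7 read 3.79 and 3.92 on its brightest probe set (220933_s_at), a difference of 0.13. The next, 236155_at, read 2.47 and 1.97, a difference of -0.50.

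The remaining TUT7 probe sets were dim. Probe set 236243_at read 0.95 and 1.35, a difference of 0.39. Probe set 238800_s_at read 0.86 and 1.39, a difference of 0.53, and it passed the detection rule only through its miR-941 value. Over the 4 detected TUT7 probe sets the mean was 0.14 ± 0.46 (SD over probe sets), so no direction stood out from their spread. The fifth, not detected, read 0.43 on both. Among the 6 members that had 2 detected probe sets or more, DICER1 was the 1 with all lower, IPO8 the 1 with all higher, and 4 had both directions, where 66.5% of 6102 such genes on the array were not all in 1 direction.

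Dim probe sets of the members took differences of repeated size. The size 0.24 of DICER1 216260_at and of XPO5 223055_s_at was the same to within 1e-06, and 1211 other probe sets shared that of each. The -0.50 of TUT7 236155_at was shared in size by 421 others. Of the 20 detected member probe sets, 9 had a size shared by at least 10 other probe sets, against 61.1% of all detected probe sets. All 7 member probe sets at a level up to 4 were among the 9, with 2 of the 5 between 4 and 6 and 0 of the 8 above 6. The 3 brighter DICER1 probe sets, DROSHA and both RAN probe sets had sizes shared by 0 others.

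The wider set of genes around these steps also held no gene past 2-fold, against 0.51% of all detected genes. Over 6 lists of cofactors, 63 of 71 genes were detected, with 24 lower, 38 higher and 1 equal, and a median difference of 0.05. The share of all detected genes, 42.4% lower and 46.3% higher with a median of 0, is the background for these counts and for those of each list. Of the 12 detected cofactors of cropping 5 were lower and 7 higher (median 0.04). The RNA-binding protein gene HNRNPA2B1 differed by -0.11 on its brightest probe set and was lower on all 3, with a median of -0.43 and a lowest value of -0.66, and 13.2% of 1604 genes with exactly 3 detected probe sets had all 3 lower. HNRNPA1, of the same family, differed by -0.05 on the brighter and -0.80 on the dimmer of its 2, and 21.7% of genes with exactly 2 had both lower. DDX5, a helicase of the large Microprocessor, read 2.14 and 2.59, a difference of 0.45 on 1 dim probe set. Between a level of 2 and 4, where it lies, differences had an SD of 0.39 and 78.5% were of repeated size. The cap-binding gene NCBP2 differed by 0.29. Of 11 genes of nuclear export and the RAN cycle 3 were lower, 7 higher and 1 equal (median 0.04). RANBP1, a cofactor of RAN's GTP hydrolysis, differed by -0.25, the exportin XPO7 by -0.17 and the tRNA exportin XPOT by 0.22. RANBP3 differed by 0.28, but 2 of its 3 detected probe sets were lower and their median was -0.42.

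Importins, the family of IPO8, had the highest median of these lists, but its size depended on the summary per gene. Their median was 0.21, from 9 higher and 6 lower of 15 detected, and 0.09 with the mean over detected probe sets, from 11 higher and 4 lower. KPNA2, an importin alpha gene, read 9.60 (control) and 10.02 (miR-941), differing by 0.42, while its other probe set differed by 0.03. IPO7 differed by 0.39 and was higher on 3 of 4. On the lower side were KPNA4 at -0.28, with 1 of its 4 probe sets higher and 1 equal, and IPO13 at -0.10 on its 1. IPO5, singled out after its values were seen, differed by 0.32 and was higher on all 5 probe sets (median 0.32 ± 0.08, SD over probe sets), as 2.51% of 199 genes with exactly 5 were.

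Of 10 detected genes of tailing and precursor decay 4 were lower and 6 higher (median 0.08, and -0.10 without _x_at and _s_at probe sets). PNPT1, the mitochondrial polynucleotide phosphorylase, differed by -0.50 (7.29 and 6.78, 1 probe set), and the terminal nucleotidyltransferase gene TENT4A differed by -0.21. The uridylyltransferase gene TUT1 read 1.46 and 2.19, a difference of 0.73 on 1 dim probe set. Up to a level of 2, where it lies, 93.2% of detected probe sets had a difference of repeated size. The poly(A) ribonuclease gene PARN differed by 0.25. LIN28B, which encodes a let-7 precursor binding protein and was singled out after its values were seen, read 7.07 and 7.09, and LIN28A was below the detection level.

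Double-stranded RNA binding and editing genes numbered 4 lower and 3 higher of 7 (median -0.11), but 3 lower and 4 higher (median 0.03) with the mean over detected probe sets. The RNA helicase gene DHX9 differed by -0.30 on the brighter and 0.73 on the dimmer of its probe sets. EIF2AK2, the kinase PKR that PRKRA activates, differed by -0.25 and was lower on both of its probe sets. ADARB1, an editing enzyme, differed by 0.18, with its other probe set lower and a median of -0.20, and STAU1 by 0.15. Chaperone genes for the loading of Argonaute proteins numbered 2 lower and 6 higher of 8 detected (median 0.05), from DNAJA1 at -0.16 and FKBP5 at -0.13 to HSP90AB1 at 0.26 and FKBP4 at 0.41. HSP90AB1 was higher on all 3 probe sets, as 10.8% of genes with exactly 3 were. The other probe sets of FKBP4 differed by 0.03 and 0, and those of DNAJA1 and FKBP5 went both ways.

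**Figure D3:**
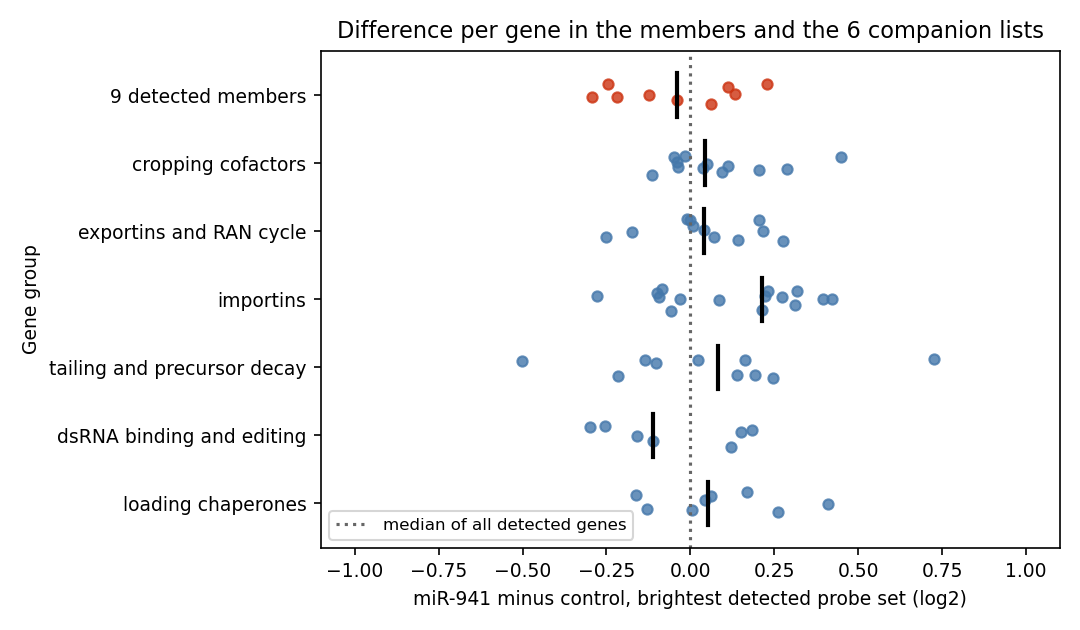
Difference between the arrays (miR-941 minus control, log2, horizontal axis) of each detected gene on its brightest probe set, for the 9 members (red) and the 6 lists of related genes (blue), with black bars at the median of each group and a dotted line at the median of all detected genes. Points are spread vertically only to keep them apart. The importin bar lies at 0.21 and that of the members at -0.04, and no point passes 1 in either direction.

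Across the 54675 probe sets, which are not independent replicates, Pearson's r between the arrays was 0.992. Of 12 genes fixed as markers of the kidney line from which 293T derives, 10 were detected, while LHX1 and KRT8 were not. The 10, which include the filament genes VIM and NEFL, were 4 lower, 5 higher and 1 equal. Among them PAX2 (0.86 and 1.23) passed the detection rule only through the miR-941 array. Of 17 measured markers of other cell types 9 were detected, 4 lower and 5 higher, and CD3E, PTPRC, MS4A1, CD14, LYZ, ALB, COL3A1 and KRT14 were not. Of the 9, VWF (0.66 and 1.39) and GFAP (0.89 and 1.36) passed the detection rule only through the miR-941 array and APOA1 (1.21 and 0.80) only through the control, so the rule set part of these counts. The log2 levels of the 17 other markers, detected or not, summed over the brightest probe set of each, came to 22.6 (control) and 24.5 (miR-941). Those of the kidney line markers came to 51.9 and 52.2. Dim probe sets such as that of VWF enter these sums. HBB, the gene of beta globin, read 6.95 and 7.54 on its brightest probe set. Of the 4 detected HBB probe sets 3 were higher and 1 lower, with differences from -0.73 to 0.76. Its part in the differences above was not tested.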

How the data were processed

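The deposited log2 values, 1 per probe set and array, were made by the authors with RMA in R, as the series' design text states. Affy and MAS5 also stand in the submitters' processing notes, with no version or role. The scale is not written in the sources used here: values reached 13.7, above the natural logarithm of a 16-bit reading (11.1), and were taken as log2. Any centring is unknown. Array medians were 0.92 (control) and 0.98 (miR-941). Such low medians and the many differences of repeated size are unlike plain RMA output, so a further step before deposit cannot be told from the values, and folds rest on the log2 reading.

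Names came from the platform annotation, with symbols updated through Entrez identifiers to RefSeq GRCh38.p14 (41037 of 41091 matched). Of the rest, 1801 had several symbols, 11721 none and 62 were controls. A gene was represented by its brightest detected probe set, and levels of different probe sets were not compared. With 1 array per group no test was made, and this number limits the precision. Differences within 1e-06 were called equal. On simulated data, known shifts put on shuffled differences were recovered in the median difference per gene, and the loess step removed a known trend. The counts of lists and of repeated sizes were not tested in this way. All members and the companion genes with the 2 highest and 2 lowest differences per list are named. The members and lists were chosen with earlier results of these data known. Alternatives were other summaries per gene, level filters, folds and a loess trend removed (span 0.3). Python 3.11.15 with pandas 2.3.3 and statsmodels 0.14.6 was used.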

Additional observations from a re-analysis of the deposited data

How the results depend on the processing

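No paired analysis was possible because a group is 1 array, and leaving an array out would remove its group. The count of members past 2-fold was 0 in each direction under each alternative, and 0 at 1.5-fold, so that at 4-fold was bound to be 0. The alternative level filters left the members' values as they were. With 0.51% of all detected genes past 2-fold, a count of 0 among 9 genes says little. DICER1, DROSHA, PRKRA and TUT4 were lower and XPO5 and IPO8 higher under each alternative that gave them a value. DICER1 lay between -0.45 and -0.25. DROSHA, PRKRA and TUT4 had 1 detected probe set each, those of DICER1 were all lower and those of IPO8 all higher. For these genes only the loess step could have changed the direction, so the other alternatives were no check of it. With the mean over detected probe sets, TARBP2 had 0.07 and the members' median was 0.03, with 4 lower and 5 higher. Without _x_at and _s_at probe sets, XPO5 and PRKRA have no detected probe set and fewer genes have a value. Then 2 members were higher in place of 4, the median was -0.12, and TARBP2 (0.18), RAN (-0.0096) and TUT7 (-0.50) changed direction. The same setting left 3 cropping cofactors lower (5 otherwise), 4 export and RAN cycle genes higher (7), 3 tailing and decay genes higher (6), 1 double-stranded RNA gene higher (3) and 1 chaperone gene lower (2). With the mean over probe sets, 6 export and RAN cycle genes (3 otherwise) and 4 chaperone genes (2) were lower, and the cause was not tested. Medians of the lists also changed sign: with the mean over probe sets to -0.0040 (cropping), -0.0084 (export and RAN cycle) and 0.03 (double-stranded RNA), and for tailing and decay to -0.04 at levels over the 75th percentile and -0.10 with those suffixes left out. The importin median was 0.15 with no level filter and 0.09 with the mean. Over all genes, 29 higher and 38 lower at 2-fold became 4 and 7 above the 75th percentile of level, where fewer genes are tested, 23 and 18 with the mean over probe sets, 384 and 377 at 1.5-fold, and 0 and 1 at 4-fold. The share of detected probe sets whose difference had a size shared by at least 10 others was 93.2% up to a level of 2, 78.5% from 2 to 4 and 2.09% above 8, so dim differences are coarse.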
